A study of Mus musculus with 18 samples.

Results

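The miR-181 family is taken here as 6 mature microRNAs (miRNAs), mmu-miR-181a-5p, mmu-miR-181b-5p, mmu-miR-181c-5p, mmu-miR-181d-5p, mmu-miR-181a-1-3p and mmu-miR-181a-2-3p. They were selected by name and account for 6 of the 1907 mature miRNAs and 8 of the 2045 rows in the deposited table. Other products of the same hairpins, among them miR-181c-3p, are not counted as members or in the family's shares. Small RNAs from NIH/3T3, a mouse fibroblast line, were sequenced as input and as the fraction captured by an anti-pseudouridine (Ψ) antibody, the immunoprecipitate (IP). Ψ is the modified uridine made by pseudouridine synthases, and the gene of one of these, Pus1, had been knocked down for 3 days (KD3) or 6 days (KD6) or left intact in wild-type (WT) cells. Each of the 6 groups had 3 libraries, named replicates A, B and C, which gives 18 in all. How Pus1 was knocked down and whether replicates were separate cultures is not given in the sources used here, so that p-values measure the spread between these libraries, which may be technical. The Pus1 transcript is not a miRNA, and its level was not analysed here.

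A mature miRNA is cut from a hairpin precursor, and each hairpin can give one product from its 5′ arm (5p) and another from its 3′ arm (3p). The seed, bases 2 to 8 from the 5′ end, directs most pairing with target messenger RNAs, and miRNAs with the same seed are grouped as a family. The 5p products of miR-181 are best known from lymphocytes, where miR-181a-5p tunes the sensitivity of the T cell receptor. The 3p products carry other seeds and are usually the less abundant arm.

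The mature sequences show how close the members are, and are given below from RefSeq (build GRCm38.p6) with the seed in capitals. All 6 members, and all 4 other products of the same hairpins, had an entry.
mmu-miR-181a-5p: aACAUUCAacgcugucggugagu
mmu-miR-181c-5p: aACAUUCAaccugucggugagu
mmu-miR-181b-5p: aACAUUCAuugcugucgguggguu
mmu-miR-181d-5p: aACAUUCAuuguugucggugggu
mmu-miR-181a-1-3p: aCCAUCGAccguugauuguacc
mmu-miR-181c-3p: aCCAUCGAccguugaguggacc
mmu-miR-181a-2-3p: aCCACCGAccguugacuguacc

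The 4 5p members share the seed ACAUUCA. Between miR-181a-5p and miR-181c-5p the edit distance was 1, a single base missing in miR-181c-5p after 10 shared bases. miR-181b-5p and miR-181d-5p both differ from miR-181a-5p by A9U, C10U and A21G (positions counted from 1 at the 5′ end, base of miR-181a-5p first), and from each other by C12U and 1 base of length. miR-181a-1-3p and miR-181a-2-3p come from sister hairpins and differ by U5C and U16C, of which U5C lies in the seed. The seed of miR-181a-1-3p, CCAUCGA, is also that of miR-181c-3p, the 3p product of the miR-181c hairpin, and the pair share their first 15 bases. For miR-181a-2-3p the deposited table placed the 5′ end 3 bases downstream of the RefSeq start, which would make its seed CCGACCG. The counts do not show which start the reads had.

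The 6 hairpins lie in 3 pairs in GRCm38. Mir181a-1 (chr1:137966455-137966541, plus strand) and Mir181b-1 (chr1:137966639-137966718) are separated by 97 bases in an exon of the long noncoding RNA gene A430106G13Rik and an intron of Gm4258. Mir181a-2 (chr2:38852735-38852810, plus strand) and Mir181b-2 (chr2:38853830-38853918) are separated by 1019 bases in an intron of Nr6a1, a gene on the opposite strand. Mir181d (chr8:84178716-84178787, minus strand) and Mir181c (chr8:84178873-84178961) are separated by 85 bases in an intron of Nanos3, on the same strand. The mature miR-181a-5p and miR-181b-5p are each made from hairpins on chromosomes 1 and 2 and have 2 rows in the table. For miR-181a-5p the rows were within 1 estimated count of each other in all 18 libraries. How reads that match both hairpins were assigned is not given in the sources used here. For miR-181b-5p the row totals were 11917.1 and 9547.5. Rows were summed per mature miRNA, and the source hairpin of these members cannot be read from the table.

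The shallowest library, KD6 input replicate A, had 241109 mapped reads, and the 17 others had 3989031 to 15099781. Reads outside the miRNA rows made up 5.47% to 9.96% of mapped reads in input libraries and 14.8% to 38.2% in IP libraries. Levels are given as CPM, the count of a miRNA scaled by the effective library size, with the median-ratio factors the study's methods also use. All 6 members passed the filter on low counts, as did 550 miRNAs in total.

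The family was a small part of the miRNA pool and was smaller still after IP. The 6 members held 0.0927% ± 0.0148 (SD, n = 3) of the miRNA reads of WT inputs and 0.0397% ± 0.0050 of those of WT IP libraries. In KD3 the shares were 0.101% ± 0.0065 in input and 0.0437% ± 0.0040 in IP. In KD6 they were 0.129% ± 0.0826 and 0.0236% ± 0.0113. Every IP library was below every input library of the same condition. The wide spread in KD6 input came from replicate A at 0.0588% and replicate C at 0.220%, the lowest and the highest of the 9 inputs. The libraries are of bulk RNA, in which fewer cells of a kind and less RNA per cell cannot be told apart.

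**Figure D1:**
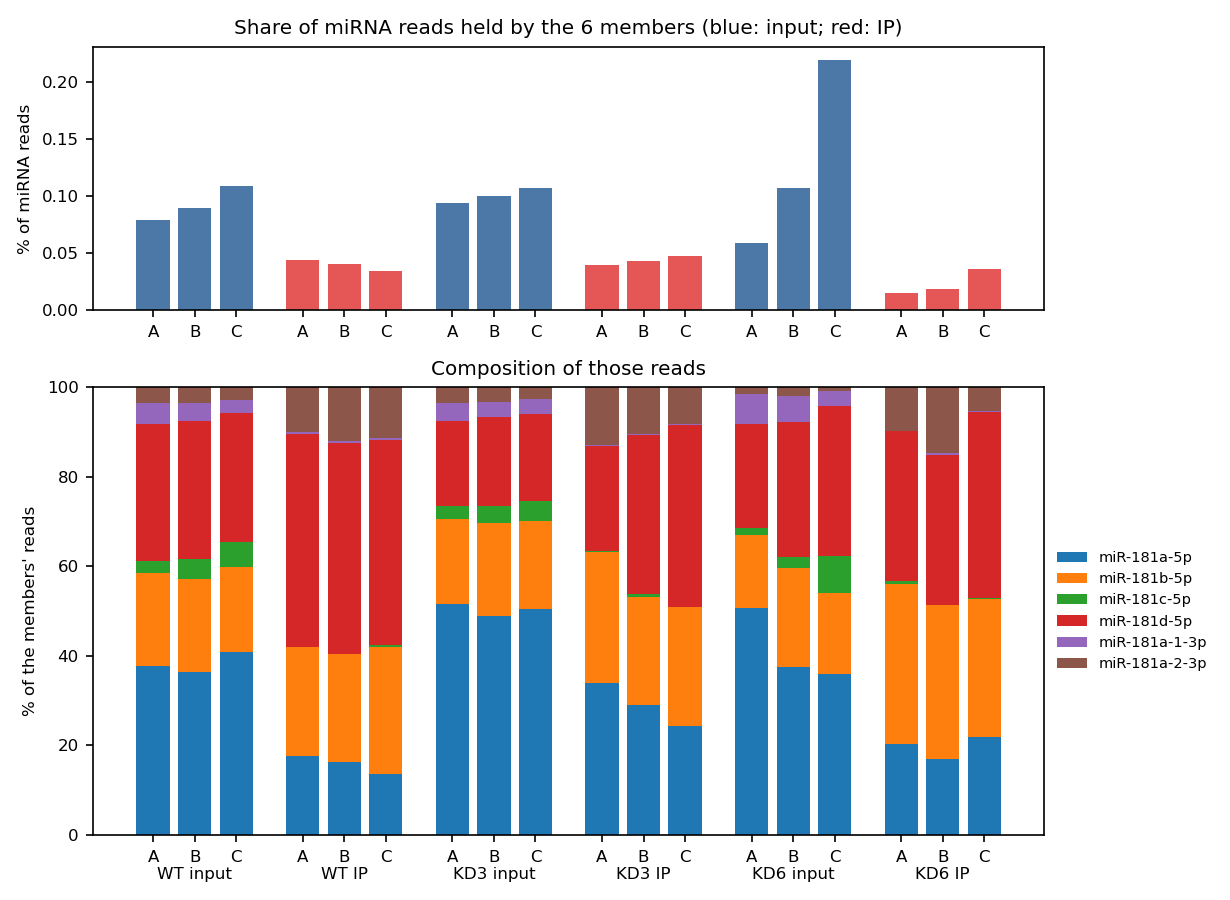
Top, percent of each library's miRNA reads held by the 6 members (blue bars, input; red bars, IP), and bottom, percent of those reads given by each member, for replicates A, B and C of each group. miR-181a-5p took 35.9% to 51.6% of the members' reads in the inputs and 13.5% to 34.0% in the IP libraries, and the segments of miR-181c-5p and miR-181a-1-3p nearly vanish after IP.

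The composition of the family shifted with IP. In WT input, miR-181a-5p gave 38.3% ± 2.25 of the members' reads, miR-181d-5p 30.0% ± 1.10 and miR-181b-5p 20.2% ± 0.997 (SD, n = 3). In WT IP, miR-181d-5p gave 46.9% ± 0.853, miR-181b-5p 25.6% ± 2.54 and miR-181a-5p 15.8% ± 2.10. miR-181a-2-3p, the least abundant member in WT input at 3.28% ± 0.408 of the members' reads, gave 11.2% ± 1.12 in WT IP and passed both miR-181c-5p and miR-181a-1-3p. These are shares of reads, and ligation and amplification can differ between sequences, so they are not shares of molecules.

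In WT cells, 4 of the 6 members fell in IP against input and 1 rose. By edgeR's quasi-likelihood test with Benjamini-Hochberg adjustment over the 550 miRNAs, a call needs an adjusted p under 0.05. Calls were frequent among all miRNAs, with 68.9% called in either direction and 37.5% called lower in IP. Non-overlap of a member's IP and input libraries is given below as a description only. The share of all miRNAs without such overlap was not computed. The members' median log2 ratio was −1.54 against −0.04 for all miRNAs. In KD3 again 4 members fell and 1 rose, with 70.5% of all miRNAs called and 36.2% called lower, and medians of −1.23 for the members and −0.03 for all. In KD6 5 members fell and 1 rose, with 71.3% of all miRNAs called and 35.5% called lower, and medians of −2.05 and −0.00. With total mapped reads as library size, calls higher in IP made up 33.5% of calls in place of 48.7% in KD3, and 27.7% in place of 50.3% in KD6.

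**Figure D2:**
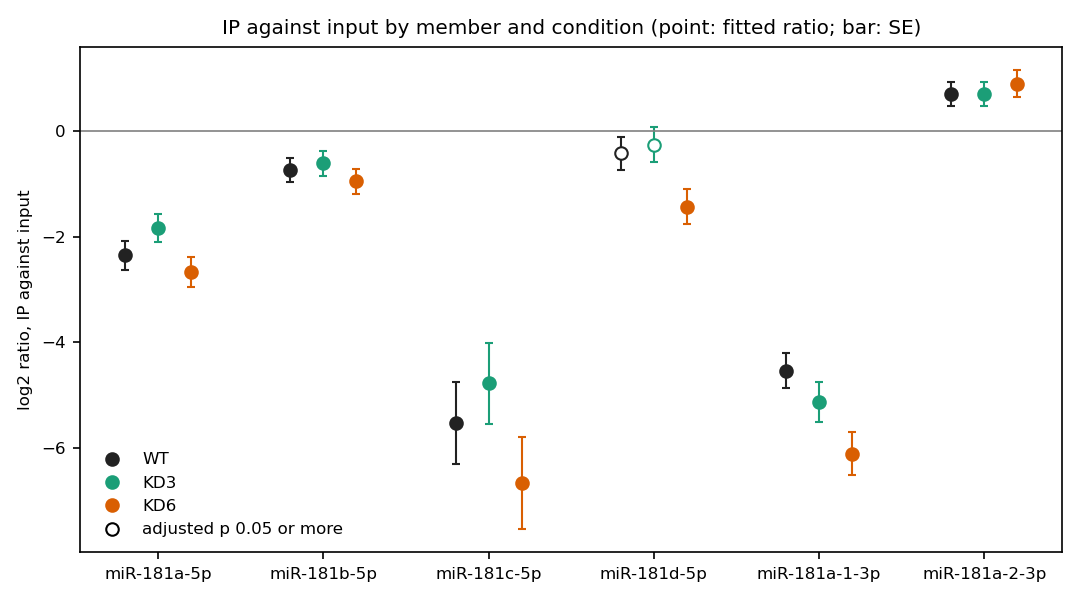
Fitted log2 ratio of IP against input (points) with its SE (bars) for each member in WT, KD3 and KD6, and open points where the adjusted p was 0.05 or more. miR-181c-5p and miR-181a-1-3p lie between −6.67 and −4.54, miR-181a-2-3p lies above 0 in all 3 conditions, and the 2 open points are miR-181d-5p in WT and KD3.

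With its 2 rows summed, miR-181a-5p was the most abundant member in the inputs. Its level was lower in every IP library than in any input of its condition. In WT the inputs were at 270.3, 281 and 384 CPM and the IP libraries at 72.1, 65.1 and 46.8 CPM (replicates A, B and C). In KD3 the inputs were at 480, 448 and 506 CPM and the IP libraries at 152, 133 and 117 CPM. KD6 inputs were at 331, 320.1 and 549 CPM and the IP libraries at 51.0, 44.8 and 93.6 CPM. The log2 ratio was −2.35 ± 0.27 (SE) in WT, −1.84 ± 0.27 in KD3 and −2.66 ± 0.28 in KD6 (adjusted p = 1.57e-07, 3.78e-06 and 2.87e-08, edgeR quasi-likelihood test). The level in IP was 5.10-fold lower in WT, 3.57-fold lower in KD3 and 6.34-fold lower in KD6.

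miR-181c-5p, which differs from miR-181a-5p by 1 edit, was nearly absent after IP. In WT it was at 19.0, 34.2 and 52.1 CPM in input and at 0.494, 0.746 and 0.908 CPM in IP. In KD3 it was at 27.6, 34.6 and 45.5 CPM in input and at 0.374, 3.77 and 0.477 CPM in IP. KD6 inputs were spread from 9.88 through 20.99 to 126.6 CPM, and the KD6 IP libraries were at 1.21, 0 and 0.557 CPM. Replicate C was the highest input in each condition and replicate A the lowest, though in KD6 replicate A held only 2 estimated counts. The log2 ratios of −5.53 ± 0.78 in WT, −4.78 ± 0.77 in KD3 and −6.67 ± 0.88 in KD6 passed the test (adjusted p = 1.97e-06, 1.23e-05 and 7.4e-07, edgeR quasi-likelihood test). IP libraries held 0 to 10 estimated counts of miR-181c-5p, and a count of 0 allows up to 3, so the size of this fall is loosely fixed. In KD6 all 3 IP libraries were at or under 3 counts, and with 3 counts in each the input mean would be 50.1-fold higher. The KD6 ratio was −4.95 with input replicate C left out and −7.36 with input replicate A left out. Without replicate B of the KD3 IP, which held the 10 counts, the KD3 ratio was −6.28, and without replicate C of that IP −4.10.

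miR-181a-1-3p fell as steeply, from inputs that varied little. In WT the inputs were at 34.2, 31.1 and 28.5 CPM and the IP libraries at 1.98, 0.932 and 1.21 CPM. In KD3 the inputs were at 36.6, 31.4 and 33.3 CPM and the IP libraries at 1.12, 0.753 and 0.954 CPM. KD6 inputs were at 44.4, 49.1 and 51.3 CPM, and the KD6 IP libraries at 0, 1.37 and 0.743 CPM. No IP library reached its inputs. The log2 ratio was −4.54 ± 0.34 in WT, −5.13 ± 0.37 in KD3 and −6.11 ± 0.41 in KD6 (adjusted p = 1.69e-10, 1.46e-10 and 2.82e-11, edgeR quasi-likelihood test), on 0 to 8 estimated counts per IP library.

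**Figure D3:**
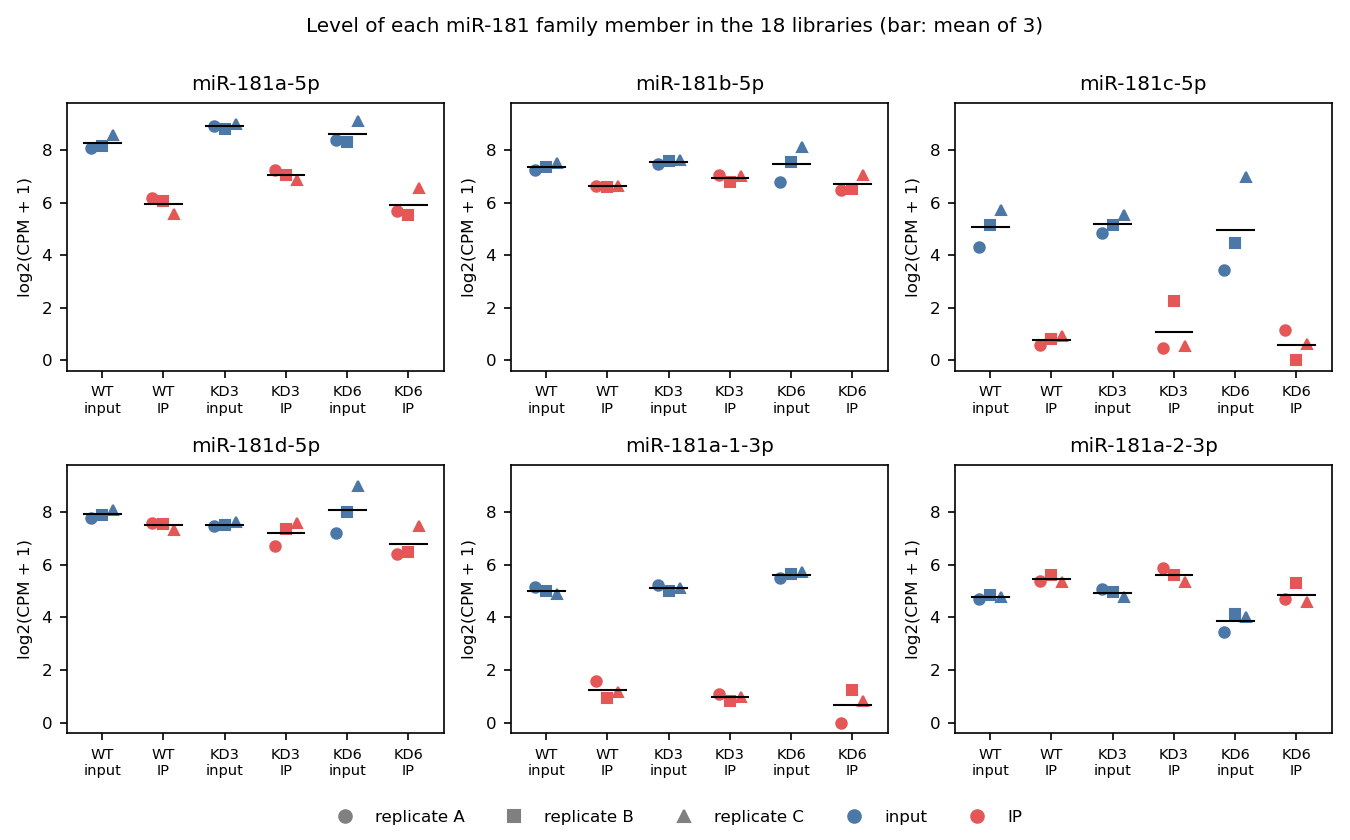
Level of each member, log2(CPM + 1), in the 18 libraries by group (blue, input; red, IP; circles, squares and triangles, replicates A, B and C; bar, mean of 3). For miR-181a-5p, miR-181c-5p and miR-181a-1-3p the IP points lie below the inputs in all 3 conditions, for miR-181a-2-3p above them, and for miR-181d-5p in KD3 and KD6 they overlap.

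miR-181b-5p fell in all 3 conditions, by less. WT inputs were at 149, 161 and 179.8 CPM and WT IP libraries at 98.8, 95.8 and 98.6 CPM, with no overlap. KD3 inputs were at 176, 191 and 198 CPM and KD3 IP libraries at 131, 110.4 and 127 CPM, also without overlap. KD6 inputs were at 109, 189 and 278 CPM and KD6 IP libraries at 88.98, 91.4 and 132 CPM, so that replicate C of the IP lay above replicate A of the input. The log2 ratio was −0.74 ± 0.23 in WT, −0.62 ± 0.23 in KD3 and −0.95 ± 0.24 in KD6 (adjusted p = 0.00764, 0.0231 and 0.00125, edgeR quasi-likelihood test). In KD3 the call was lost without replicate B or C of the input or replicate B of the IP, with adjusted p from 0.0604 to 0.084. With KD6 input replicate A left out, the KD6 ratio was −1.61.

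miR-181d-5p fell in KD6 and did not pass the test in WT or KD3. WT inputs were at 219, 238 and 271 CPM and WT IP libraries at 194, 188 and 159 CPM, and the groups did not overlap. KD3 inputs were at 176, 181 and 195 CPM and KD3 IP libraries at 105, 162 and 194 CPM, where replicate C of the IP lay among the inputs. KD6 inputs were at 148, 257 and 511 CPM and KD6 IP libraries at 83.7, 89.1 and 179 CPM, where replicate C of the IP lay above replicate A of the input. The log2 ratio was −0.43 ± 0.32 in WT, −0.26 ± 0.32 in KD3 and −1.44 ± 0.33 in KD6 (adjusted p = 0.236, 0.489 and 0.000615, edgeR quasi-likelihood test). In a fit of the 6 WT libraries alone the WT ratio passed too, at −0.55 (adjusted p = 0.00325), as 1 of 384 miRNAs called. The KD6 ratio depended on the inputs at each extreme and was −0.85 without replicate C and −2.16 without replicate A.

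miR-181a-2-3p was the member that rose. WT inputs were at 24.9, 27.5 and 26.5 CPM and WT IP libraries at 40.5, 48.5 and 39.5 CPM. KD3 inputs were at 33.0, 30.2 and 26.2 CPM and KD3 IP libraries at 58.0, 48.2 and 39.6 CPM. KD6 inputs were at 9.88, 16.6 and 15.04 CPM and KD6 IP libraries at 24.7, 38.8 and 23.0 CPM. Every IP library was above every input of its condition, for which the share over all miRNAs was not computed. The log2 ratio was 0.70 ± 0.23 in WT, 0.70 ± 0.23 in KD3 and 0.89 ± 0.26 in KD6 (adjusted p = 0.00908, 0.00998 and 0.00408, edgeR quasi-likelihood test), or 1.63-fold, 1.62-fold and 1.86-fold more. This rise depended on how libraries were scaled, since with TMM factors it was 0.40, 0.45 and 0.52 and not called (adjusted p = 0.155, 0.109 and 0.0959), and with total mapped reads it was 0.37, 0.12 and −0.26, also not called. Those scalings moved the median of all miRNAs to between −1.14 and −0.26, and relative to that median miR-181a-2-3p was at 0.71 to 0.88. Since a scaling moves every miRNA nearly alike, that value is nearly fixed in advance and does not show that the rise survives rescaling. The KD6 value also rested on replicate A of the input, where miR-181a-2-3p had 2 estimated counts, and without that library it was 0.40 (adjusted p = 0.188). In KD3 the adjusted p was 0.0517 without replicate C of the input.

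**Figure D4:**
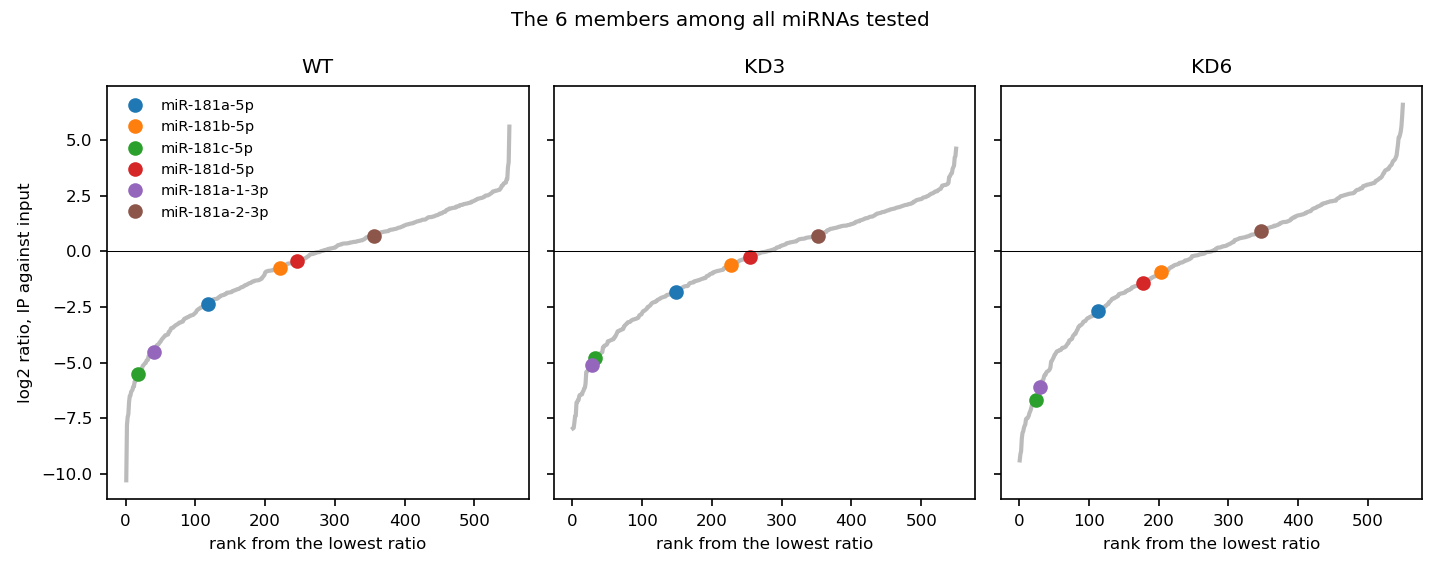
All 550 miRNAs tested ranked by their log2 ratio of IP against input (grey line) in WT, KD3 and KD6, with the 6 members as coloured points. miR-181c-5p and miR-181a-1-3p lie near the low end of the curve and miR-181a-2-3p in its upper part.

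The members thus spanned much of the range of all miRNAs. In WT, counted from the lowest of the 550 ratios, miR-181c-5p ranked 18, miR-181a-1-3p 41, miR-181a-5p 118 and miR-181a-2-3p 356. In KD6 the ranks of miR-181c-5p and miR-181a-1-3p were 24 and 30, and that of miR-181a-2-3p was 347.

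The uridines an antibody against Ψ could meet differ in number between members, and this is given as a description with 6 points that share sequence. miR-181b-5p and miR-181d-5p have 9 U, the other 5p members and miR-181a-1-3p have 6, and miR-181a-2-3p has 4. Over the 1623 mature miRNAs of the table with a RefSeq sequence the median was 6 and the range 0 to 15. Among the 5p members, those with 9 U had WT log2 ratios of −0.74 and −0.43 and those with 6 U had −2.35 and −5.53. The order did not extend to the 3p members, where miR-181a-2-3p, with the fewest U of the 6, was the one that rose. Of the other hairpin products, miR-181c-3p and miR-181b-1-3p also have 4 U, and both fell in WT. The log2 ratio of miR-181c-3p was −4.88. miR-181d-3p, with 3 U, did not pass the test in WT. A link between the number of U and the ratio was not tested.

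Because the scaling between libraries moves every miRNA alike, members were also compared inside each library, as the log2 ratio of one member's count to another's. For each of the 15 pairs the 9 IP libraries were set against the 9 inputs by a two-sided exact permutation test within conditions, with 8000 assignments and adjustment over the 15 pairs. For 13 pairs the ratio differed between IP and input at p = 0.00025 (adjusted 0.00029), the smallest p the exact permutation test can give. The 15 pairs reuse the same 6 members, so they are not separate results. Pairs of other miRNAs were not tested, so the share of all pairs that would differ is not known. Calls in IP against input were frequent, at 68.9% of all 550 miRNAs in WT and 71.3% in KD6.

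**Figure D5:**
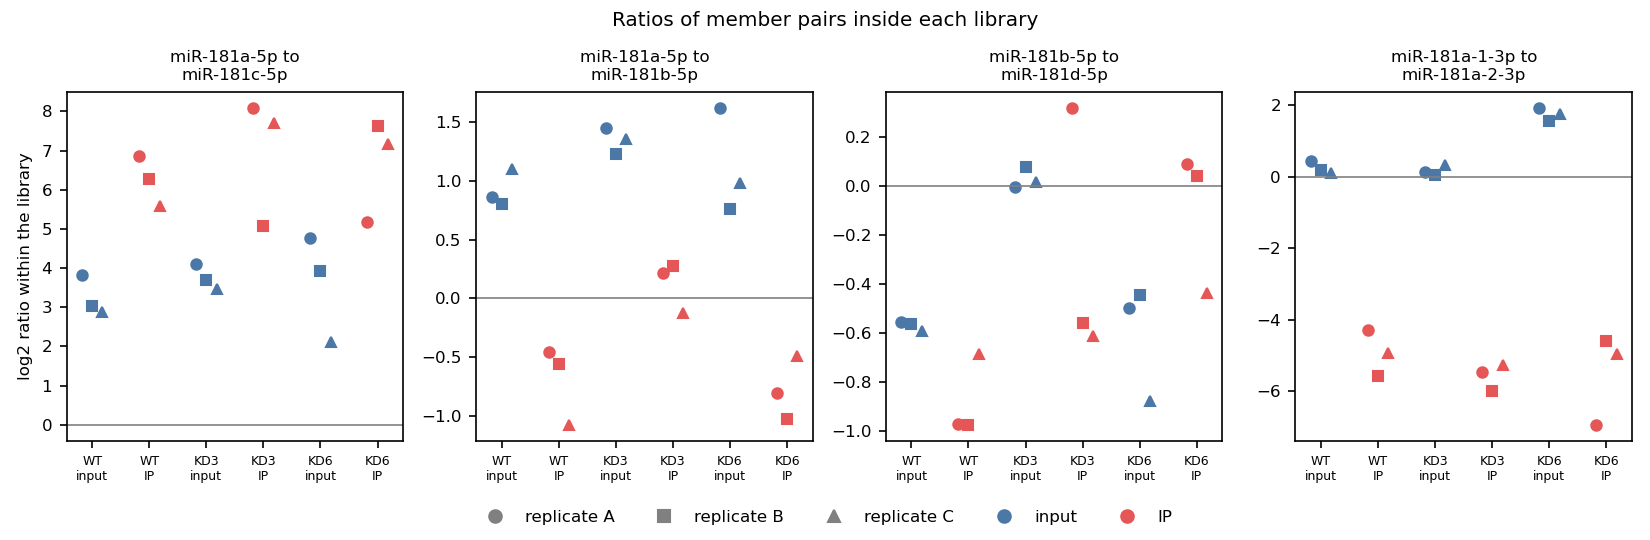
Log2 ratio of 4 pairs of members inside each of the 18 libraries, by group (blue, input; red, IP; circles, squares and triangles, replicates A, B and C). The IP points lie apart from the inputs of their condition for miR-181a-5p to miR-181c-5p, miR-181a-5p to miR-181b-5p and miR-181a-1-3p to miR-181a-2-3p, and overlap with them or change sides for miR-181b-5p to miR-181d-5p.

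The sister products miR-181a-1-3p and miR-181a-2-3p were the pair of 3p members. In the 9 inputs their log2 ratio was 0.73 ± 0.78 (SD), with miR-181a-1-3p the higher in 9 of 9 libraries. In the 9 IP libraries it was −5.34 ± 0.80, with miR-181a-1-3p the lower in each. The mean difference was −6.06 (adjusted p = 0.00029, exact permutation test). It had the same sign in all 27 comparisons of an IP library with an input of its condition, which ran from −8.87 to −4.38. The IP libraries held 0 to 8 estimated counts of miR-181a-1-3p, so the size of the difference is loosely fixed. The lowest value involved KD6 IP replicate A, which held 0 counts of it.

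The near-identical pair miR-181a-5p and miR-181c-5p also separated. Inside the inputs miR-181a-5p exceeded miR-181c-5p by 3.54 ± 0.77 on the log2 scale, and inside the IP libraries by 6.62 ± 1.14 (SD, n = 9 each). The difference of 3.08 had the same sign in all 27 comparisons and was 2.99 in WT, 3.20 in KD3 and 3.06 in KD6 (adjusted p = 0.00029, exact permutation test). Over library pairs it ran from 0.42 to 5.50. The IP libraries held 0 to 10 estimated counts of miR-181c-5p, so the size of the difference is loosely fixed. Reads with an error could be counted for the other of such close copies, and the table does not show how many were.

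miR-181a-5p fell further than miR-181b-5p by 1.58 and further than miR-181d-5p by 1.62 (log2, adjusted p = 0.00029 for each, exact permutation test). miR-181a-5p was above miR-181b-5p in 9 of 9 inputs and in 2 of 9 IP libraries, and above miR-181d-5p in 9 of 9 inputs and in 1 of 9 IP libraries. With the 2 rows of miR-181a-5p summed, it was therefore the leading member of the family in every input, and another member led in most IP libraries. The log2 ratio of miR-181a-5p to miR-181d-5p, which has 1 row, was 0.304, 0.244 and 0.505 in WT inputs. How reads matching both hairpins were assigned is not known, and with 1 row of miR-181a-5p alone miR-181d-5p would lead there.

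For 2 pairs the test over the 3 conditions did not pass. The ratio of miR-181b-5p to miR-181d-5p differed between IP and input by −0.04 (p = 0.794, adjusted 0.851, exact permutation test), with −0.31 in WT, −0.31 in KD3 and 0.51 in KD6 and a range over library pairs from −0.69 to 0.97. That mean near 0 held opposite shifts, since the 3 WT IP libraries, at −0.97 to −0.69, lay below the WT inputs, at −0.59 to −0.56, and the 3 KD6 IP libraries, at −0.44 to 0.093, lay above the KD6 inputs, at −0.88 to −0.44. The closest KD6 libraries, IP replicate C and input replicate B, were at −0.436 and −0.445. The ratio of miR-181c-5p to miR-181a-1-3p differed by −0.10 (p = 0.899, adjusted 0.899, exact permutation test), with −0.87, 0.03 and 0.55 in WT, KD3 and KD6. Over library pairs it ran from −4.11 to 4.73, with an SD of 1.03 over the 9 inputs and 1.82 over the 9 IP libraries, so this pair was poorly resolved.

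Of the 4 other products of the family's hairpins, 3 were tested, and 2 fell in IP in each condition and none rose. miR-181c-3p was at 131, 112 and 108 CPM in WT input and 2.47, 3.73 and 5.30 CPM in WT IP, so the inputs held far more. In WT input it was the more abundant arm of its hairpin, at a mean of 117 CPM against 35.1 CPM for miR-181c-5p. The log2 ratio of miR-181c-3p was −4.88 in WT, −4.76 in KD3 and −6.40 in KD6. These were close to those of miR-181a-1-3p, with which it shares its seed. miR-181b-1-3p had 40 to 63 estimated counts in WT inputs and 0 in all 3 WT IP libraries, which makes it at least 6.69-fold lower in WT IP, against the floor of 3 counts in each library. In the KD3 and KD6 IP it had 0, 0 and 4 and 0, 0 and 2 counts. miR-181d-3p did not pass the test in any of these comparisons, with 0 to 17.5 counts per library, and miR-181b-2-3p, with 26 counts over all libraries, was under the filter.

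Whether the IP ratio changed with knockdown of Pus1, of a depth not analysed here, was tested as a difference between conditions. No member passed in any of the 3 comparisons. Over all 550 miRNAs 0% were called for KD3 against WT, 0% for KD6 against WT and 0.182% for KD6 against KD3 (1 miRNA, edgeR quasi-likelihood test). At an unadjusted p under 0.05 there were 16, 119 and 112 miRNAs, and DESeq2 called 0, 23 and 13, none of them a member.

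For KD3 against WT the members' changes lay between −0.59 and 0.75 on the log2 scale, with an adjusted p of 1 for each (edgeR quasi-likelihood test). For KD6 against WT the members' changes lay between −1.57 and 0.19, and the median of all miRNAs was 0.25. The change was −1.57 ± 0.61 (SE) for miR-181a-1-3p and −1.01 ± 0.46 for miR-181d-5p, with unadjusted p of 0.0169 and 0.0393 and adjusted p of 0.163 and 0.216 (edgeR quasi-likelihood test). For miR-181c-5p it was −1.14 ± 1.45, for miR-181a-5p −0.31 ± 0.37, for miR-181b-5p −0.21 ± 0.33 and for miR-181a-2-3p 0.19 ± 0.34. A p above the threshold does not show that a member's ratio was the same in both conditions. Without replicate C of the KD6 IP, miR-181d-5p passed at −1.48 (adjusted p = 0.0355), as 1 of 57 miRNAs called in that fit. With total mapped reads as library size miR-181a-1-3p passed at −2.31 (adjusted p = 0.0415), as 1 of 51 called, all of them lower. That scaling moved the median of all miRNAs from 0.25 to −0.56. Relative to the median, a value nearly fixed whatever the scaling, the change of miR-181a-1-3p was −1.75, beside −1.82 with median-ratio factors. With KD6 input replicate C left out, the changes of miR-181a-5p, miR-181b-5p and miR-181c-5p were 0.01, 0.14 and 0.58.

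For KD6 against KD3 the change was −0.83 ± 0.37 for miR-181a-5p and −1.18 ± 0.46 for miR-181d-5p (adjusted p = 0.21 and 0.149, edgeR quasi-likelihood test). Both passed without replicate C of the KD6 IP, at −1.23 and −1.62, in a fit that called 63 of 593 miRNAs. miR-181d-5p also passed with KD6 input replicate A left out, at −1.57, where 21 of 596 were called.

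The inputs give the level of the members themselves. For KD3 against WT no member passed and 0% of miRNAs were called, with 44 at an unadjusted p under 0.05, 1 called with the replicate block, which was no member, and 8 called by DESeq2. miR-181a-5p was higher in each KD3 input than in any WT input, at a mean of 478 CPM against 312 CPM, with a log2 ratio of 0.61 ± 0.26 (adjusted p = 0.484, edgeR quasi-likelihood test). miR-181d-5p was lower in each KD3 input, at 184 CPM against 242 CPM, with a log2 ratio of −0.40 ± 0.32 (adjusted p = 0.853). The groups did not overlap for 30.7% of all miRNAs, so that 2 of 6 members is near the background. In a fit of these 6 libraries alone, which called 75 miRNAs, both passed, at 0.62 and −0.39 (adjusted p = 0.00694 and 0.0278).

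For KD6 against WT input no member passed, where 3.09% of miRNAs were called. miR-181a-2-3p was lower in each KD6 input (13.8 against 26.3 CPM, log2 ratio −0.78 ± 0.25, adjusted p = 0.121) and miR-181a-1-3p was higher in each (48.3 against 31.3 CPM, 0.66 ± 0.26, adjusted p = 0.238, edgeR quasi-likelihood test). The groups did not overlap for these 2 members and for 24.5% of all miRNAs. KD6 input replicate A held 2 estimated counts of miR-181a-2-3p and 9 of miR-181a-1-3p, so its place is loosely fixed. DESeq2 called both (adjusted p = 0.0427 for each) among 27 of the 550 miRNAs. The other 4 members overlapped, and the KD6 values of miR-181b-5p, miR-181c-5p and miR-181d-5p turned from higher to lower than WT with KD6 input replicate C left out, at −0.05, −0.89 and −0.19.

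For KD6 against KD3 input 1 member passed, where 4% of miRNAs were called. miR-181a-2-3p fell by 0.96 ± 0.25 on the log2 scale, from 29.8 to 13.8 CPM (adjusted p = 0.0377, edgeR quasi-likelihood test). With the replicate block it was −0.94 (adjusted p = 0.0331). The call was lost in 10 of the 14 other settings tried, among them TMM factors, at −0.93 (adjusted p = 0.0509), and every fit that left out 1 library other than KD6 input replicate A, with adjusted p from 0.0842 to 0.207. The direction was the same in all of them. miR-181a-1-3p was again higher in each KD6 input, on 9 estimated counts in replicate A. Its log2 ratio was 0.54 ± 0.26 (adjusted p = 0.281, edgeR quasi-likelihood test), and the groups did not overlap for 24.2% of all miRNAs. miR-181d-5p was at 0.79 ± 0.33 (adjusted p = 0.21) and passed with KD6 input replicate A left out, at 1.06 (adjusted p = 0.0326), in a fit that called 50 miRNAs.

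Among 147 miRNAs outside the family with a mean of at least 100 CPM, the levels most like those of miR-181a-5p over the 18 libraries were those of miR-382-3p, miR-322-3p and miR-99a-5p, with Pearson r of log2 CPM of 0.968, 0.959 and 0.948. Their log2 ratios of IP against input in WT were −2.35, −2.17 and −2.57, beside −2.35 for miR-181a-5p. Over the 9 inputs alone r was 0.624, 0.379 and 0.316, so that the likeness over 18 libraries follows the gap between IP and input. For miR-181a-2-3p the most alike were miR-423-3p, miR-296-3p and miR-298-5p, with r of 0.867, 0.859 and 0.846, and here r over the 9 inputs was 0.875, 0.844 and 0.876. Their log2 ratios of IP against input in WT were 0.49, 0.06 and 0.36, beside 0.70 for miR-181a-2-3p. These correlations are descriptions over libraries that share groups and depth.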

How the data were processed

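Per the study's methods, the authors trimmed the 3′ adapter and quantified reads with the SeqImp pipeline in its default mouse miRNA configuration (mm10, Ensembl and miRBase annotation). How reads that match several loci were counted is not given in the sources used here. They deposited estimated counts per mature miRNA and precursor, not normalized, for 18 libraries. A second set of deposited columns, numbers of distinct sequences, was not used for any value here. Of the non-zero estimated counts 47.0% were not whole. Rows were summed per mature miRNA and rounded. The row of total mapped reads named no miRNA and was left out of library sizes and tests, and reads in it that lay in no miRNA row are given as a share. Without molecular identifiers, floors drawn from counts cover counting error only.

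The test was run in R 4.3.3 and edgeR 4.0.16 (median-ratio factors, RLE; filterByExpr; glmQLFit and glmQLFTest) as 6 group means over 18 libraries without a block, with Benjamini-Hochberg adjustment. SE was taken as |log2 ratio| over √F. Within-library ratios used a pseudocount of 0.5 and an exact permutation test in Python 3.11.15. The edgeR fit was also run on simulated counts with as many miRNAs raised as lowered. That setting cannot show errors of scaling between IP and input, and its outcome is not given here. The members, the list of other hairpin products, the tests and the naming rule (all 6 members, 4 other products of their hairpins, and the 3 most correlated miRNAs with at least 100 CPM for 2 members) were chosen with earlier results of these data known. Sequences were matched by name to RefSeq (GRCm38.p6) and hairpins located in GENCODE annotation of GRCm38, the assembly mm10 also names. Coordinates are 1-based.

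Replicate letters were checked as pairs by correlating deviations from group means over 188 miRNAs. Libraries of one letter correlated above 0.1 in all 3 cases between KD3 and WT inputs (0.20 to 0.61) and between KD6 and KD3 inputs (0.24 to 0.34). By these values alone the inputs of these comparisons would count as paired, but those of KD6 and WT would not (0.058 for letter B). Libraries of different letters were not correlated, so the values cannot show pairing. No label says what a letter shares. Other comparisons had at least 1 pair under 0.1. Alternatives were TMM factors, miRNA library size without factors, total mapped reads, no abundance filter, the largest row per miRNA, the replicate block, only the libraries compared, DESeq2 1.42.0, a pseudocount of 1, and each replicate left out in turn.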

Additional observations from a re-analysis of the deposited data

Results flagged for a closer look

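The within-library log2 ratio of miR-181b-5p to miR-181d-5p moved in opposite directions with IP in WT and KD6. Every WT IP library was below every WT input, with a mean difference of −0.31, and every KD6 IP library was above every KD6 input, with a mean difference of 0.51. The KD6 value minus the WT value was 0.81, and this difference was not tested. In KD3 the IP libraries and the inputs overlapped.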

How the results depend on the processing

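Depth limits miR-181c-5p, miR-181a-1-3p and the other 3p products most, since they had few counts in IP, and the KD6 input, where replicate A was shallow. Over all settings tried miR-181a-5p, miR-181c-5p and miR-181a-1-3p stayed lower in IP and past the threshold in the 3 conditions, and 13 of 15 pair ratios kept their call. The rise of miR-181a-2-3p in IP was not called with TMM factors, with miRNA library size without factors (0.55, 0.53 and 0.06 in WT, KD3 and KD6) or with total mapped reads, and in KD6 it was then −0.26. Without the abundance filter its KD3 call was lost (adjusted p = 0.0531, edgeR), as was its KD6 call with only the libraries compared (adjusted p = 0.0588). The replicate block changed no member's call. It gave 1 miRNA called for KD3 against WT input, in place of 0, and a change of 0.0011 for miR-181a-2-3p in IP ratio, KD3 against WT. The causes of these differences were not tested.

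Values that did not pass and turned direction were as follows. miR-181d-3p, one of the other hairpin products, in KD6 IP was −0.052 without factors and −0.39 with total mapped reads. For the change in IP ratio of KD3 against WT, miR-181a-2-3p was 0.053 with TMM, and with total mapped reads miR-181b-5p was −0.13 and miR-181d-5p −0.095. For KD6 against WT miR-181a-2-3p was −0.50 without factors and −0.63 with total mapped reads, and for KD6 against KD3 −0.47 and −0.38. For KD3 against WT input miR-181c-5p was −0.12 with TMM, −0.083 without factors and −0.15 with total mapped reads, and miR-181a-1-3p −0.026 with TMM and −0.061 with total mapped reads. For KD6 against KD3 input miR-181a-5p was 0.0062 with total mapped reads. With the largest row per miRNA the ratio of miR-181b-5p to miR-181d-5p was 0.018.

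Counts of calls moved more. For the change in IP ratio of KD6 against WT, 51 miRNAs and 1 member passed with total mapped reads, 14 miRNAs without the filter and 23 with DESeq2. For KD6 against KD3 these were 8, 14 and 13, and 12 without factors, and for KD3 against WT 1 passed without the filter. For KD3 against WT input 1 passed without factors, 5 without the filter, 8 with DESeq2, and 75 with 2 members in the libraries compared alone. For KD6 against WT input DESeq2 called 27 with 2 members. For KD6 against KD3 input 12 passed without factors, 10 with total mapped reads and 10 in the libraries compared alone, and 0 members under these, TMM or no filter. The higher share of input calls was 35.3% for KD6 against WT and 8.70% with TMM, 53.8% without factors and 50% with total mapped reads, and for KD6 against KD3 31.8% against 75% without factors and 90% with total mapped reads.

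The family's share was 0.0718% (WT input), 0.0712% (KD3 input) and 0.0372% (KD3 IP) from the largest rows, and of all mapped reads 0.0331% (WT IP), 0.0909% (KD3 input) and 0.0294% (KD3 IP).

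Leaving out each replicate in turn gave 3 to 5 members called in KD3 IP. For the change of KD6 against WT it gave 0 to 57 miRNAs and 0 to 1 member, and against KD3 0 to 63 and 0 to 2, the highest without replicate C of the KD6 IP. For KD6 against WT input it gave 6 to 31 miRNAs, and against KD3 input 3 to 50 and 0 to 2 members, the highest without replicate A of the KD6 input. The IP ratio of miR-181d-3p ran from −0.40 to 2.29 in WT and from −0.77 to 1.23 in KD6. The change of KD3 against WT ran from −0.12 to 0.12 for miR-181a-2-3p, −0.75 to 1.42 for miR-181c-5p and −0.043 to 0.41 for miR-181d-5p. That of KD6 against WT ran from −0.74 to 0.013 for miR-181a-5p, −0.59 to 0.14 for miR-181b-5p, −1.73 to 0.58 for miR-181c-5p and −0.046 to 0.32 for miR-181a-2-3p. That of KD6 against KD3 ran from −0.66 to 0.032 for miR-181b-5p and −0.050 to 0.35 for miR-181a-2-3p. Among inputs, miR-181c-5p ran from −0.26 to 0.43 for KD3 against WT, −0.89 to 1.30 for KD6 against WT and −0.92 to 1.27 for KD6 against KD3. miR-181b-5p ran from −0.048 to 0.55 and −0.26 to 0.31 for the last pair of comparisons, and miR-181d-5p from −0.19 to 0.70 for KD6 against WT. The ratio of miR-181c-5p to miR-181a-1-3p ran from −0.57 to 0.36 and that of miR-181b-5p to miR-181d-5p from −0.14 to 0.017.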
